A study of Homo sapiens with 24 samples.

Results

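The heat shock, DNAJ and CCT chaperones are the genes whose symbols belong to the HSPA, HSPH1, HSP90A, HSPB, HSPD1, HSPE1, DNAJA, DNAJB, DNAJC and CCT2 to CCT8 series. The rule read the symbols alone and used no measured value, although it was set with earlier results of these data known. The rule took 88 of the 23284 genes and other features in the table and left out 4 chaperones of the endoplasmic reticulum (HSPA5, DNAJB9, DNAJB11 and DNAJC3), which gave 84 members. Of these, 15 were HSP70 and HSP110 genes, 7 HSP90, 4 DNAJA, 11 DNAJB, 25 DNAJC, 2 the mitochondrial chaperonin, 11 CCT and 9 small heat shock genes, and 9 of the 84 were pseudogenes. RNA of 6 human liver cancer lines (HLE, SK-HEP1, HepG2, Huh7, Huh1 and Hep3b) was sequenced after poly(A) selection. Each line gave 1 library to each of 4 groups: an siRNA against SFPQ with TGF-beta (siSFPQ with TGF-beta), a control siRNA with TGF-beta (siCTL with TGF-beta), siSFPQ without TGF-beta, and siCTL without TGF-beta. TGF-beta, a cytokine whose receptors act on SMAD transcription factors, was given at 2 ng per ml for 24 hours, and SFPQ is a nuclear RNA-binding protein of paraspeckles. All lines were labelled wild type and carried no other alteration named in the labels, and all were grown in serum. The labels name 1 siRNA against SFPQ and no rescue, so effects of that siRNA on other targets and the loss of SFPQ cannot be told apart.

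Chaperones keep proteins from aggregating and help them to fold. HSP70 proteins bind exposed stretches of unfolded chains, J-domain proteins (DNAJA, DNAJB, DNAJC) deliver clients to HSP70 and stimulate its ATPase, and HSP110 proteins exchange its nucleotide. HSP90 acts later, on signalling proteins such as kinases and steroid receptors, with the help of co-chaperones. The CCT complex of the cytosol folds actin and tubulin inside a double ring of different subunits, HSPD1 and its lid HSPE1 do the corresponding work inside mitochondria, and small heat shock proteins hold unfolded proteins without ATP. The transcription factor HSF1 induces many of these genes after heat or proteotoxic stress.

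The lines were the replicates, so p-values measure the spread between lines; the labels name no separate cultures within a line. Values are FPKM (sequenced fragments per kilobase of a transcript, divided by the number mapped in the library). The relative depth of a library, estimated from low genes, was 0.349 to 1.76 times the median in siSFPQ with TGF-beta, 0.655 to 1.49 in siCTL with TGF-beta, 0.404 to 1.41 in siSFPQ and 0.757 to 1.13 in siCTL libraries. SFPQ itself had 26.5, 37.7 and 54.6 FPKM (lowest, median and highest of 6 lines) in siSFPQ and 84.7, 168 and 248 FPKM in siCTL cells with TGF-beta. Without TGF-beta it had 23.5, 38.5 and 51.4 FPKM in siSFPQ and 90.4, 176 and 247 FPKM in siCTL cells. The libraries labelled Hep3b went against their label: Hep3B is a line known to secrete albumin and alpha-fetoprotein, yet ALB was at 0.514 to 0.951 FPKM and AFP at 7.89 to 13.4 FPKM. The 8 hepatocyte markers together had 4.47 to 9.43 FPKM there, against 623 to 1168 FPKM in Huh1, 4703 to 6016 in Huh7 and 11360 to 15340 in HepG2. In HLE and SK-HEP1 these sums were also low, at 27.1 to 116 and 20.5 to 25.3 FPKM, with TTR at 0 in both. The 5 endothelial markers summed to at most 1.31 FPKM in any library and the 5 immune markers to between 7.34 and 90.2 FPKM. In bulk RNA, fewer cells of a type and less RNA per cell cannot be told apart.

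Chaperone RNAs were abundant in all 6 lines. Of the 84 members, 53 reached at least 1 FPKM in every library, 66 did so in at least 6 libraries, 11 in 1 to 5, and 7 in none. The cytosolic HSP70 HSPA8 (829 FPKM, mean of 24 libraries), HSP90AB1 (808), the small heat shock protein HSPB1 (534.5, known as HSP27) and HSP90AA1 (343.5) held 42.6% of the summed FPKM of all members. The next by level were HSPD1 (343.4), the chaperonin subunits CCT3 (286.6), CCT7 (250.9), CCT2 (202.3) and CCT8 (190.9), and HSPE1 (186.5). All 84 together summed to 5651 ± 1296 FPKM in siSFPQ cells with TGF-beta and 5944 ± 1490 FPKM in siCTL cells with TGF-beta. Without TGF-beta the sum was 6026 ± 1323 FPKM in siSFPQ and 5986 ± 1048 FPKM in siCTL cells (SD, n = 6 lines each). Within lines, the sum in siSFPQ cells with TGF-beta minus that in siCTL cells with TGF-beta was -292.8 ± 355 FPKM, and minus that in siSFPQ cells without it -375.8 ± 347 FPKM (SD, n = 6), each below 0 in 5 of 6 lines. Without TGF-beta, siSFPQ minus siCTL was 40.2 ± 555 FPKM and below 0 in 3 of 6 lines. None of these sums was tested.

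The lines differed from each other far more in some members than in others. The most even members were spread over several families: DNAJC19, a subunit of the mitochondrial import motor, had line means of 11.2 to 14.4 FPKM, the HSP110 gene HSPA4 74.6 to 100.3 FPKM and the mitochondrial HSP70 HSPA9 135 to 190 FPKM. Abundance alone did not go with evenness, as HSPA8 ranged between 1208 FPKM in HLE and 352 in HepG2 and CCT5 between 262 FPKM in Hep3b and 59.7 in HepG2. Several J-domain genes were present in some lines and near 0 in others. DNAJA4 had line means of 3.09 to 4.01 FPKM in 3 lines but 0.0119 to 0.0381 FPKM in Huh1, HepG2 and SK-HEP1. DNAJC15, of the mitochondrial inner membrane, had 0.0693 FPKM in HLE, against 4.88 to 14.03 FPKM in the other 5 lines. DNAJC12 had 21.4 FPKM in Hep3b and 8.66 in Huh1 and at most 1.26 elsewhere. DNAJC22 had 19.4 to 25.2 FPKM in Huh1, Huh7 and HepG2, the 3 lines with the highest hepatocyte marker sums, and 1.43 to 2.73 FPKM in the other 3.

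Several small heat shock and HSP70 genes also differed widely between lines. HSPB7, best known from heart and skeletal muscle, was at 35.6 FPKM in Hep3b and at most 0.718 FPKM in any other line, and it was too rarely detected to be tested. HSPB8, which acts with BAG3 in autophagy, ranged between 69.1 FPKM in Huh1 and 0.110 FPKM in HLE. HSPB1 ranged between 1022 FPKM in Huh1 and 212 in Huh7. HSPA2, an HSP70 known from the testis, had 27.9 FPKM in Huh7 and 0.145 in HepG2, and HSPA12A had 0.0529 FPKM in Huh7 against 2.05 to 8.96 elsewhere. The stress-induced HSPA1A had 48.9 FPKM in Huh1 and 6.5 in HepG2, and HSPA6, an HSP70 gene made mainly after strong heat shock, reached 1.06 FPKM in Huh1 and at most 0.322 in the other lines. These are descriptions, since a line has 1 library per group.

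**Figure D1:**
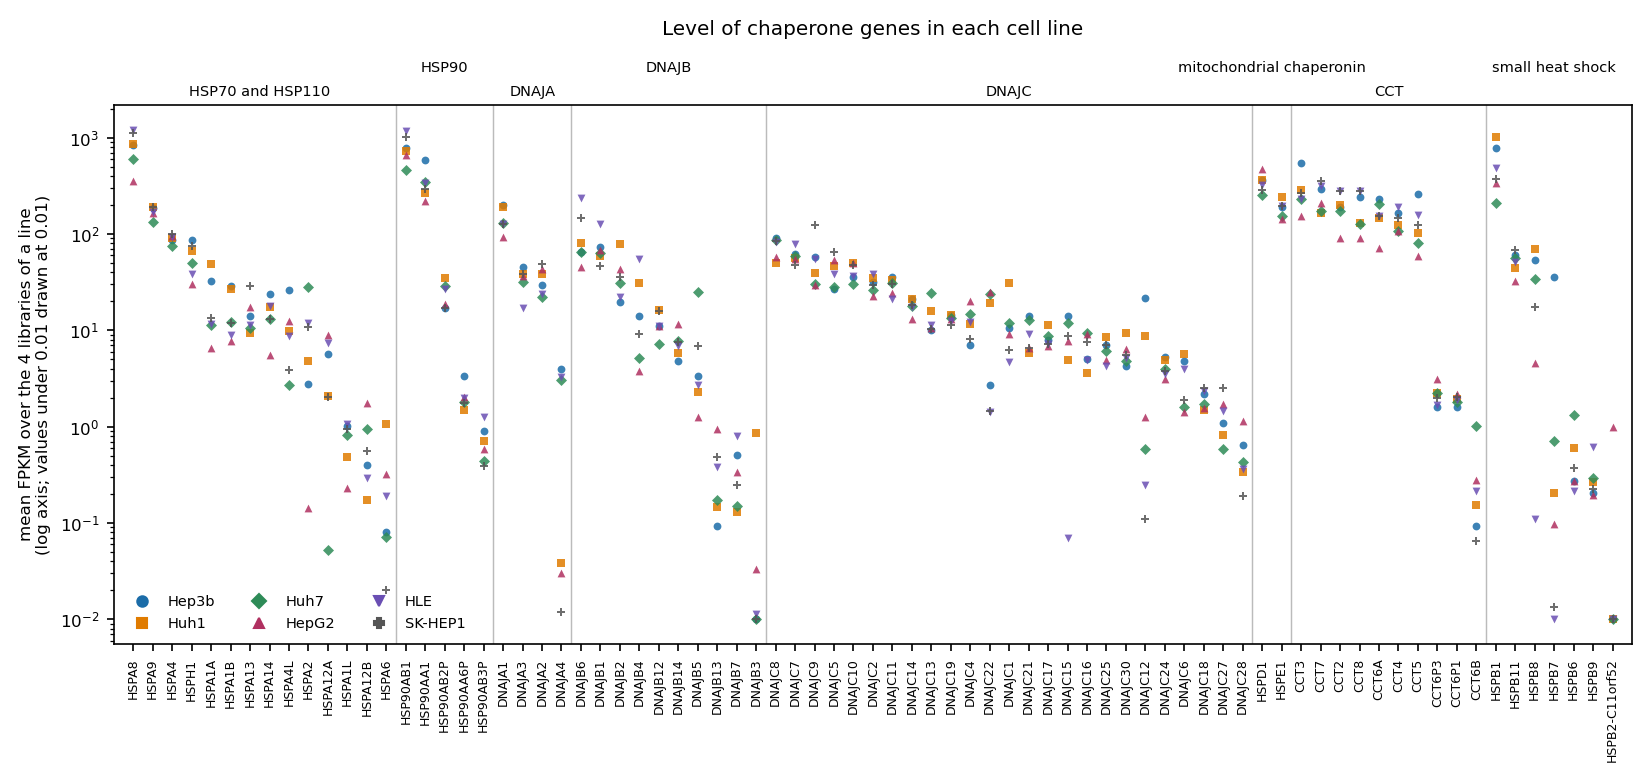
Mean FPKM of 77 chaperone genes in each line (4 libraries per line, log axis, values under 0.01 drawn at 0.01), ordered by family, with 1 point per line. HSPA8, HSP90AB1, CCT2, CCT3, CCT4, CCT5, CCT6A, CCT7 and CCT8 sit high in every line. HSPB7, HSPB8, DNAJA4 and DNAJC15 spread over several powers of 10.

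Promoter sequences were read from RefSeq (build GRCh38.p14, 250 bases before to 50 after each gene start), in which 67 of the 84 members had an entry. Both strands were searched for a heat shock element of 3 units, the repeat that HSF1 binds: GAA, any 2 bases, TTC, any 2 bases and GAA, or TTC, any 2 bases, GAA, any 2 bases and TTC. It was in 133 of 27305 promoters (0.487%) and in those of 4 of the 67 members (5.97%): DNAJA1, where it lay after the gene start, DNAJB6, HSPA6 and HSPA8. The windows before the gene start are given because HSPA8 and HSPA6 are the most and among the least abundant HSP70 RNAs here, although both carry an element. A shorter form of 2 units is GAA, any 2 bases and TTC, or TTC, any 2 bases and GAA. That form was in 16 of the 67 member promoters (23.9%) and in 13.7% of all 27305. A match describes letters and not a bound site, and elements that depart from these letters were not counted. The element of 3 units is in capitals with 20 bases on each side, read 5′ to 3′ on the gene's strand. The HSPA8 windows are on the minus strand of chr11:123062334-123062386 and chr11:123062159-123062211, with elements 230 to 218 and 55 to 43 bases before the start. The HSPA6 window is on the plus strand of chr1:161524446-161524498, with its element 74 to 62 bases before the start. That of DNAJB6 is on the plus strand of chr7:157336853-157336905, with its element 131 to 119 bases before the start.
HSPA8, upstream: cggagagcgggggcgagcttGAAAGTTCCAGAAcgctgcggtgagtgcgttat
HSPA8, near the start: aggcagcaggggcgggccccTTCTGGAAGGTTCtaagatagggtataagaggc
HSPA6: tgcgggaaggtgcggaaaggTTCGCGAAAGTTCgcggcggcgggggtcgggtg
DNAJB6: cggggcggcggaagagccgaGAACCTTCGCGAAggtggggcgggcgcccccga

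SFPQ knockdown without TGF-beta changed a small set of chaperones, with DNAJC1 and DNAJC17 the deepest falls and DNAJC10 the largest rise, and gave no call among the HSP70, HSP110 and HSP90 genes. Changes are log2 differences of FPKM + 1 within lines with their standard error (SE), from limma with Benjamini-Hochberg adjustment over all genes tested. Of 64 members tested, 3 rose (DNAJC10, DNAJC25 and CCT5) and 6 fell (DNAJC1, DNAJC17, DNAJC22, DNAJC30, DNAJC4 and HSPB11). That is 14.1% of the members tested, where 21.7% of all 12012 genes tested were called (6.69% higher and 15.0% lower). The median change was -0.02 over the members and -0.07 over all genes tested. The siSFPQ libraries had a lower median than siCTL libraries, and with every library scaled to a common median ratio, 5 members were called higher and 3 lower. Without Hep3b, whose markers went against its label, 7 members were called.

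Of 35 J-domain genes tested, 7 were called (20%), a share near the 21.7% of all genes. All 7 were among the 24 DNAJC genes, with 0 of 4 DNAJA and 0 of 7 DNAJB genes called. DNAJC1, a J-domain protein of the endoplasmic reticulum membrane, had 1.21, 7.41 and 26.2 FPKM (lowest, median and highest line) in siSFPQ and 7.08, 11.9 and 35.8 FPKM in siCTL cells. It was lower in siSFPQ cells in every line, although the groups overlap. It fell by 0.83 on the log2 scale (SE 0.20, adjusted p = 0.0193), and without SK-HEP1 the adjusted p was 0.0506. DNAJC17, which joins a J domain to an RNA recognition motif, had 4.46, 6.76 and 10.04 FPKM in siSFPQ and 7.85, 10.3 and 13.8 FPKM in siCTL cells. It fell by 0.59 (SE 0.13, adjusted p = 0.0144) in 6 of 6 lines and was called with any line left out. DNAJC22 fell by 0.41, DNAJC30 by 0.40 and DNAJC4 by 0.37 (adjusted p = 0.0323, 0.0372 and 0.0317), each lower in 6 of 6 lines, but DNAJC22 and DNAJC30 were not called without Hep3b, Huh7, HLE or SK-HEP1 (adjusted p up to 0.0841 and 0.0907) and DNAJC4 was called only with HLE or no line left out (up to 0.0770). Scaling to a common median ratio also ended the calls of DNAJC30 and DNAJC4, and removing the GC trend those of DNAJC22 and DNAJC30.

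DNAJC10, a disulfide reductase of the endoplasmic reticulum also known as ERdj5, went the other way. It had 32.2, 49.2 and 66.1 FPKM in siSFPQ and 29.5, 33.2 and 48.7 FPKM in siCTL cells, higher in 6 of 6 lines. The change was 0.46 (SE 0.12, adjusted p = 0.0280), and the adjusted p reached 0.0756 with 1 line left out (the call was lost without HepG2, HLE or SK-HEP1). DNAJC25 rose by 0.40 (SE 0.12, adjusted p = 0.0358), but its reads overlap those of a read-through transcript. DNAJC25-GNG10 averaged 0.334 FPKM in siSFPQ and 1.59 FPKM in siCTL cells. Summed over both, the change was 0.14 ± 0.26 (SD, n = 6) and positive in 4 of 6 lines, so the DNAJC25 call is uncertain; it was also lost without Huh1, HepG2, HLE or SK-HEP1 (adjusted p up to 0.0947). HSPB11, known as IFT25 and a subunit of intraflagellar transport rather than a classical small heat shock protein, fell by 0.35 (SE 0.10, adjusted p = 0.0400) and was lower in 5 of 6 lines. That call was lost without Huh7, HepG2, HLE or SK-HEP1 (adjusted p up to 0.107), and also under a common median ratio or with the GC trend removed.

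No HSP70, HSP110, HSP90 or mitochondrial chaperonin gene was called, where 21.7% of all genes tested were. HSPA8 had 309, 908 and 1164 FPKM in siSFPQ and 349, 843 and 1274 FPKM in siCTL cells, a change of -0.03 (SE 0.09, adjusted p = 0.854). HSPA1A (0.13), HSPA1B (0.05), HSPA9 (0.04) and the HSP110 gene HSPH1 (-0.03) were also not called. An unadjusted p under 0.05 in limma was reached by 0 of 11 HSP70 and HSP110 genes and by 4484 of all 12012 genes tested. HSPA1A and HSPA1B encode nearly identical transcripts, so how their reads were split is uncertain. HSP90AA1 (0.01), HSP90AB1 (-0.14), HSPD1 (0.12), HSPE1 (-0.25), HSPB1 (0.09), DNAJA1 (0.03) and DNAJB1 (0.00), the main J-domain partner of HSP70 in the heat shock response, were not called either.

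Among the CCT genes, 1 of 9 tested was called (11.1%, against 21.7% of all genes tested), and the median of the 9 was 0.15. CCT5 had 80.4, 132 and 304 FPKM in siSFPQ and 52.6, 101 and 228 FPKM in siCTL cells and rose by 0.36 (SE 0.10, adjusted p = 0.0374) in 5 of 6 lines. With 1 line left out the call was kept only without Huh7, and the adjusted p reached 0.106. CCT6A, which shares sequence with the pseudogenes CCT6P1 and CCT6P3, had a change of -0.38 (SE 0.13, adjusted p = 0.0675). The other subunits lay between -0.08 for CCT3 and 0.21 for CCT2, with CCT4 at 0.15, CCT7 at 0.15 and CCT8 at 0.01. The median CCT change differed in sign between lines, with 0.17 in Hep3b, -0.07 in Huh1, -0.12 in Huh7, 0.29 in HepG2, 0.39 in HLE and 0.03 in SK-HEP1.

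With TGF-beta present, knockdown called more members, again mostly lower. Of 63 tested, 4 rose (HSPB1, DNAJC10, HSPA12A and DNAJC25) and 14 fell, which is 28.6% of the members tested, where 30.3% of all 12022 genes tested were called (8.47% higher and 21.8% lower). The median was -0.10 over the members and -0.09 over all genes. Scaling to a common median ratio gave 7 called higher and 6 lower, and removing each library's trend with GC content gave 10 higher and 8 lower. Without Hep3b, 13 members were called. The calls shared by both knockdown comparisons were 6: DNAJC1, DNAJC4, DNAJC17 and DNAJC30 fell in both and DNAJC10 and DNAJC25 rose in both, of 9 called without and 18 called with TGF-beta. The comparisons share no libraries but use the same 6 lines and siRNA, and 0 members were called in opposite directions. How many of all genes tested were shared in this way was not counted. The 6 are therefore not shown to be particular to these members.

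Of 34 J-domain genes tested, 11 were called (32.4%, against 30.3% of all genes). They were 2 higher and 8 lower of 23 DNAJC genes, whose median was -0.29, and 1 lower of 4 DNAJA genes. DNAJC1 had 1.98, 7.65 and 26.1 FPKM in siSFPQ and 7.68, 11.8 and 35.8 FPKM in siCTL cells with TGF-beta. It fell by 0.68 (SE 0.16, adjusted p = 0.0166), and the fall was deepest in HLE, at -1.64. DNAJC17 had 4.15, 5.33 and 8.57 FPKM in siSFPQ and 6.30, 9.55 and 12.96 FPKM in siCTL cells with TGF-beta and fell by 0.68 (SE 0.14, adjusted p = 0.00930). Both were called with any line left out. Mitochondrial J-domain proteins were among the others: DNAJC15 fell by 0.50 (adjusted p = 0.0251, lost without HepG2), DNAJC11 by 0.39 (adjusted p = 0.0213, lost without SK-HEP1) and DNAJA3 by 0.24 (adjusted p = 0.0406, lost with any 1 line left out). DNAJC7, which binds both HSP70 and HSP90, fell by 0.29 (adjusted p = 0.0263), and DNAJC21, a ribosome biogenesis factor, by 0.34 (adjusted p = 0.0451). DNAJC30 fell by 0.40 and DNAJC4 by 0.33, while DNAJC10 rose by 0.39 (adjusted p = 0.0280). Some of these calls rested on single lines: DNAJC10 was lost without Hep3b, HepG2, HLE or SK-HEP1 (adjusted p up to 0.0700), DNAJC7 without Hep3b or SK-HEP1 (up to 0.0613), DNAJC21 without any line but Huh1 (up to 0.0997) and DNAJC4 without HepG2 (0.0574). After scaling to a common median ratio DNAJC4, DNAJC7, DNAJC11, DNAJC21, DNAJC30 and DNAJA3 were not called, with DNAJC7 at -0.18 and DNAJA3 at -0.13, and after the GC trend was removed DNAJC7, DNAJC15, DNAJC21 and DNAJA3 were not called. DNAJC25 was higher by 0.35 (adjusted p = 0.0202), and here the read-through DNAJC25-GNG10 averaged 2.52 FPKM in siSFPQ and 0.432 FPKM in siCTL cells with TGF-beta. The sum of both gave 0.63 ± 0.36 (SD, n = 6), positive in 5 of 6 lines, and the DNAJC25 call was lost without HepG2 (adjusted p = 0.0561).

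With TGF-beta present, 1 chaperonin gene of mitochondria and 1 of the cytosol were called lower in siSFPQ cells. HSPE1, the lid of the mitochondrial chaperonin, had 96.6, 158 and 184 FPKM in siSFPQ and 146, 212 and 256 FPKM in siCTL cells with TGF-beta. It fell by 0.46 (SE 0.07, adjusted p = 0.00350) in 6 of 6 lines. HSPD1, the barrel it closes, had no call, at -0.04 (SE 0.08, adjusted p = 0.724). In the cytosol CCT6A had 58.7, 118 and 212 FPKM in siSFPQ and 71.7, 196 and 255 FPKM in siCTL cells with TGF-beta and fell by 0.53 (SE 0.10, adjusted p = 0.00749). No other of the 9 CCT genes tested was called, which makes 11.1%, against 30.3% of all genes tested. CCT5 had 0.31 (adjusted p = 0.0508), CCT3 -0.17 (adjusted p = 0.0620), CCT2 0.14, CCT4 -0.03, CCT7 0.00 and CCT8 -0.05. Both HSPE1 and CCT6A were called with any line left out.

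HSPD1 and HSPE1 are head-to-head neighbours, and the sequence between them is shown because their RNAs moved apart here. Their starts in RefSeq are 105 bases apart on chr2, and the 104 bases between, chr2:197500275-197500378 of GRCh38.p14, read on the plus strand as follows, with a CACGTG in capitals that was picked after the sequence was read. It is in 7.43% of all promoters and in 6 of the 67 member promoters (8.96%), and the stretch holds 0 heat shock elements of 3 units. HSPD1 and HSPE1 are both among the 6, since the promoter windows of both genes hold this same stretch.
HSPD1 to HSPE1: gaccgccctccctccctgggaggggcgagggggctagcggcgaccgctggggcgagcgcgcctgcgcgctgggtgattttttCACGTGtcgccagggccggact

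HSPB1 gave the largest rise among members with TGF-beta present. It had 405, 571 and 1549 FPKM in siSFPQ and 211, 427 and 957 FPKM in siCTL cells with TGF-beta, a change of 0.53 (SE 0.14, adjusted p = 0.0199) that was positive in 5 of 6 lines. The call was lost without Huh7 or SK-HEP1, with an adjusted p of up to 0.0552. The highest library of each group was Huh1, and Hep3b was the line with no rise. HSPA12A rose by 0.37 (SE 0.11, adjusted p = 0.0340) and the HSP110 gene HSPA4L fell by 0.50 (SE 0.15, adjusted p = 0.0341), but HSPA12A was lost without Hep3b, HepG2, HLE or SK-HEP1 (adjusted p up to 0.0838) and HSPA4L without Huh1, Huh7, HLE or SK-HEP1 (up to 0.0801) and under a common median ratio or GC trend removal. HSP90AB1, the constitutive cytosolic HSP90, had 336, 682 and 1106 FPKM in siSFPQ and 428, 785 and 1306 FPKM in siCTL cells with TGF-beta. It fell by 0.25 (SE 0.06, adjusted p = 0.0113), a call not made after scaling to a common median ratio or after the GC trend was removed. The pseudogene HSP90AA6P fell by 0.97 (SE 0.15, adjusted p = 0.00389) at a low level, at most 2.18 FPKM in siSFPQ and 3.76 FPKM in siCTL cells with TGF-beta, and how its reads were told apart from those of other HSP90 genes is uncertain. Other HSP70 and HSP90 genes were not called: HSPA8 had -0.19, HSPA1A 0.09, HSPA1B -0.15, HSPA9 -0.02, HSPH1 -0.10 and HSP90AA1 -0.15, and DNAJA1 had -0.03 and DNAJB1 -0.11.

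**Figure D2:**
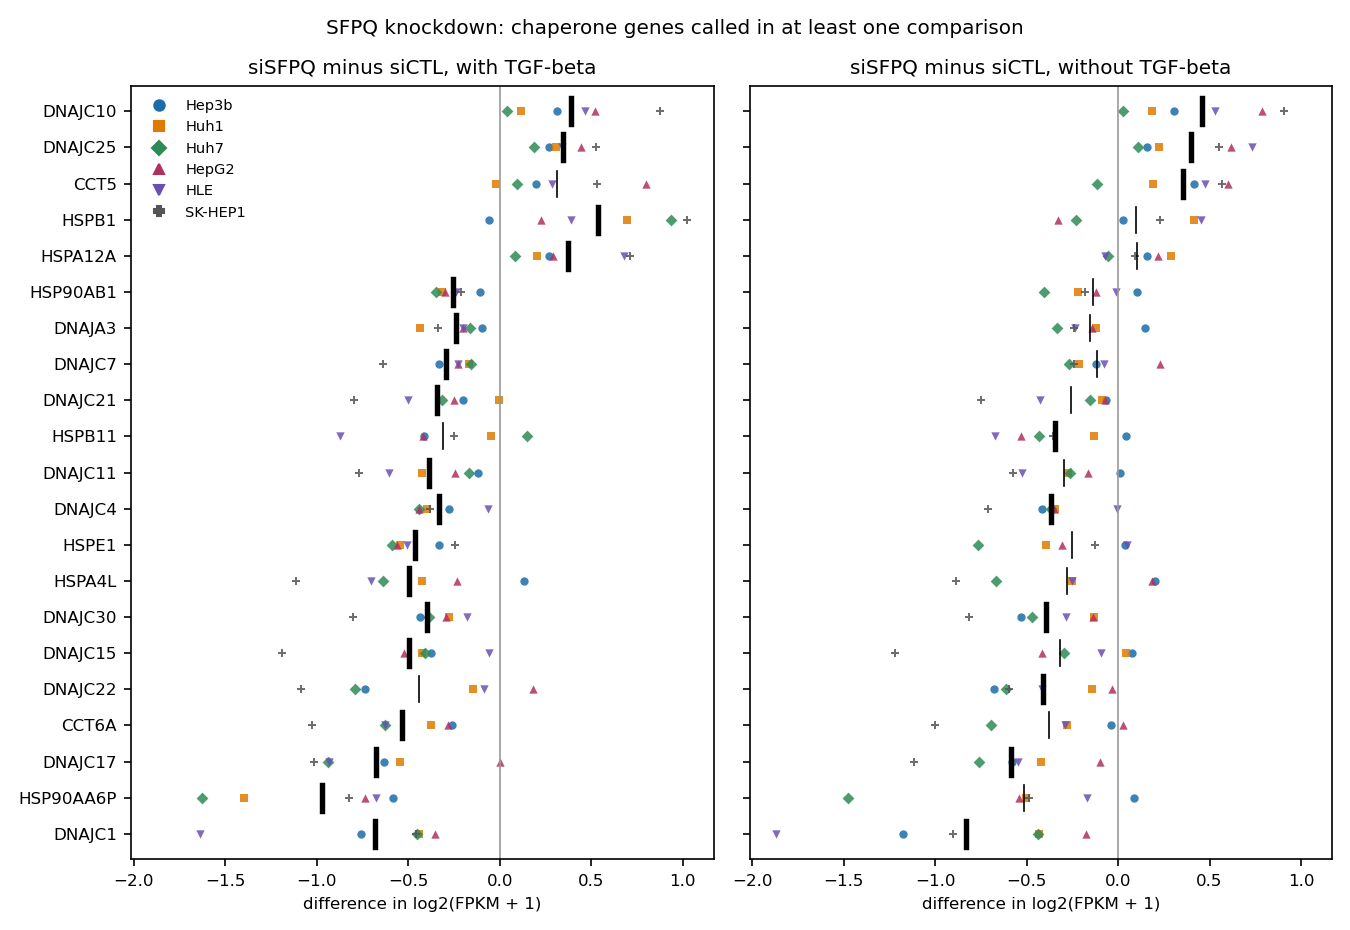
Log2 change of FPKM + 1, siSFPQ minus siCTL, for the 21 members called in either knockdown comparison, with TGF-beta on the left and without it on the right. Points are the 6 lines, bars their mean, and thick bars mark members called in that comparison. The means of DNAJC1 and DNAJC17 lie below 0 and that of DNAJC10 above 0 in both panels.

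TGF-beta gave calls among the chaperones in siSFPQ cells. Of 64 members tested there, 2 rose (DNAJB2 and DNAJB5) and 7 fell (HSPA4L, DNAJC19, HSPD1, DNAJA3, HSP90AA1, CCT7 and CCT4), which is 14.1% of the members tested, where 5.13% of all 11885 genes tested were called (2.25% higher and 2.88% lower). The median was -0.09 over the members and -0.06 over all genes. The count depended on single lines: without Hep3b 5 members were called, without HLE or without Huh1 0, without HepG2 1, without Huh7 2 and without SK-HEP1 5. DNAJC19 was called with 4 of the 6 lines left out in turn (lost without Huh1 or HLE, adjusted p up to 0.0656) and each other member with at most 2 (adjusted p up to 0.114). This comparison and knockdown with TGF-beta share the 6 siSFPQ libraries with TGF-beta.

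DNAJB2, which delivers ubiquitylated clients to the proteasome, had 19.8, 44.1 and 98.5 FPKM in siSFPQ cells with TGF-beta and 10.2, 31.7 and 61.6 FPKM in siSFPQ cells without it. It rose by 0.71 (SE 0.11, adjusted p = 0.0293) in 6 of 6 lines. DNAJB5 had 1.91, 3.33 and 40.6 FPKM with and 1.03, 2.68 and 22.7 FPKM without TGF-beta in siSFPQ cells and rose by 0.60 (SE 0.12, adjusted p = 0.0340). Its highest library was Huh7 in both groups. HSPB1 had a larger change of 0.87 that was not called (SE 0.24, adjusted p = 0.0680, positive in 5 of 6 lines).

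The members that fell after TGF-beta in siSFPQ cells included mitochondrial and cytosolic folding genes. HSPD1 had 180, 294 and 438 FPKM with and 274, 392 and 605 FPKM without TGF-beta in siSFPQ cells and fell by 0.40 (SE 0.07, adjusted p = 0.0318) in 6 of 6 lines. HSPE1 had -0.36 and missed the threshold (SE 0.09, adjusted p = 0.0515). DNAJC19 of the mitochondrial import motor had 8.58, 11.1 and 12.8 FPKM with and 11.3, 15.3 and 16.7 FPKM without TGF-beta in siSFPQ cells and fell by 0.41 (SE 0.06, adjusted p = 0.0232), and the mitochondrial DNAJA3 fell by 0.32 (adjusted p = 0.0447). In the cytosol HSPA4L fell by 0.51 (adjusted p = 0.0284), HSP90AA1 by 0.31 (adjusted p = 0.0359), CCT7 by 0.27 (adjusted p = 0.0468) and CCT4 by 0.25 (adjusted p = 0.0447). HSP90AA1, CCT7, CCT4 and DNAJA3 were not called after scaling to a common median ratio (-0.25, -0.21, -0.19 and -0.26) or after the GC trend was removed (-0.26, -0.24, -0.20 and -0.29). The other CCT subunits were lower on average but not called, at -0.11 for CCT2, -0.17 for CCT3, -0.21 for CCT5, -0.21 for CCT6A and -0.17 for CCT8, and the mean change was below 0 for 9 of 9 CCT genes (2 of them the pseudogenes CCT6P1 and CCT6P3), where 63.9% of all genes tested were below 0. In siCTL cells it was below 0 for 8 of 9 CCT genes, where 60.1% of all genes were. HSPA8 (-0.20), HSP90AB1 (-0.22), HSPA9 (-0.26), HSPA1A (0.01), HSPA1B (-0.24), HSPH1 (-0.08), DNAJA1 (-0.04) and DNAJB1 (-0.01) were not called.

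In siCTL cells TGF-beta called 0 of 63 members in limma, where 0.0986% of all 12165 genes tested were called (0.0658% higher and 0.0329% lower). An unadjusted p under 0.05 was found for 9 of the 63 members and for 1910 of the 12165 genes. The 4 members with the smallest p were DNAJB2 (0.47, SE 0.09, adjusted p = 0.0928), HSPB1 (0.43, SE 0.12, adjusted p = 0.150), DNAJB6 (0.15, adjusted p = 0.154) and HSPA4L (-0.29, adjusted p = 0.203). DNAJB2 had 27.6, 31.9 and 89.2 FPKM with and 15.4, 25.8 and 62.6 FPKM without TGF-beta in siCTL cells, higher with TGF-beta in 6 of 6 lines. HSPB1 had 211, 427 and 957 FPKM with and 126, 344 and 703 FPKM without TGF-beta in siCTL cells and was also higher in 6 of 6 lines. HSPD1 had -0.23, HSPE1 -0.15, HSP90AA1 -0.14, DNAJC19 -0.05, CCT7 -0.11 and CCT4 -0.06, none of them called.

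The difference between the TGF-beta changes in siSFPQ and in siCTL cells was tested in all 24 libraries. Of 66 members tested, 0 were called in limma, where 0.252% of all 13495 genes tested were called (0.222% higher and 0.0296% lower). An unadjusted p under 0.05 was found for 13 of the 66 members and for 1688 of the 13495 genes. DNAJC19 came nearest, with a difference of -0.37 (SE 0.06, adjusted p = 0.0550) and the same sign in 6 of 6 lines. HSP90AA6P had -0.46 (adjusted p = 0.174), CCT4 -0.18 (adjusted p = 0.247) and DNAJB2 0.24 (adjusted p = 0.249), each with the same sign in 6 of 6 lines. HSPB1 had 0.44 (adjusted p = 0.305), HSPD1 -0.17 and HSPE1 -0.21. The larger number of members called after TGF-beta in siSFPQ cells, and after knockdown with TGF-beta, is therefore not shown to be a difference for any single member.

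**Figure D3:**
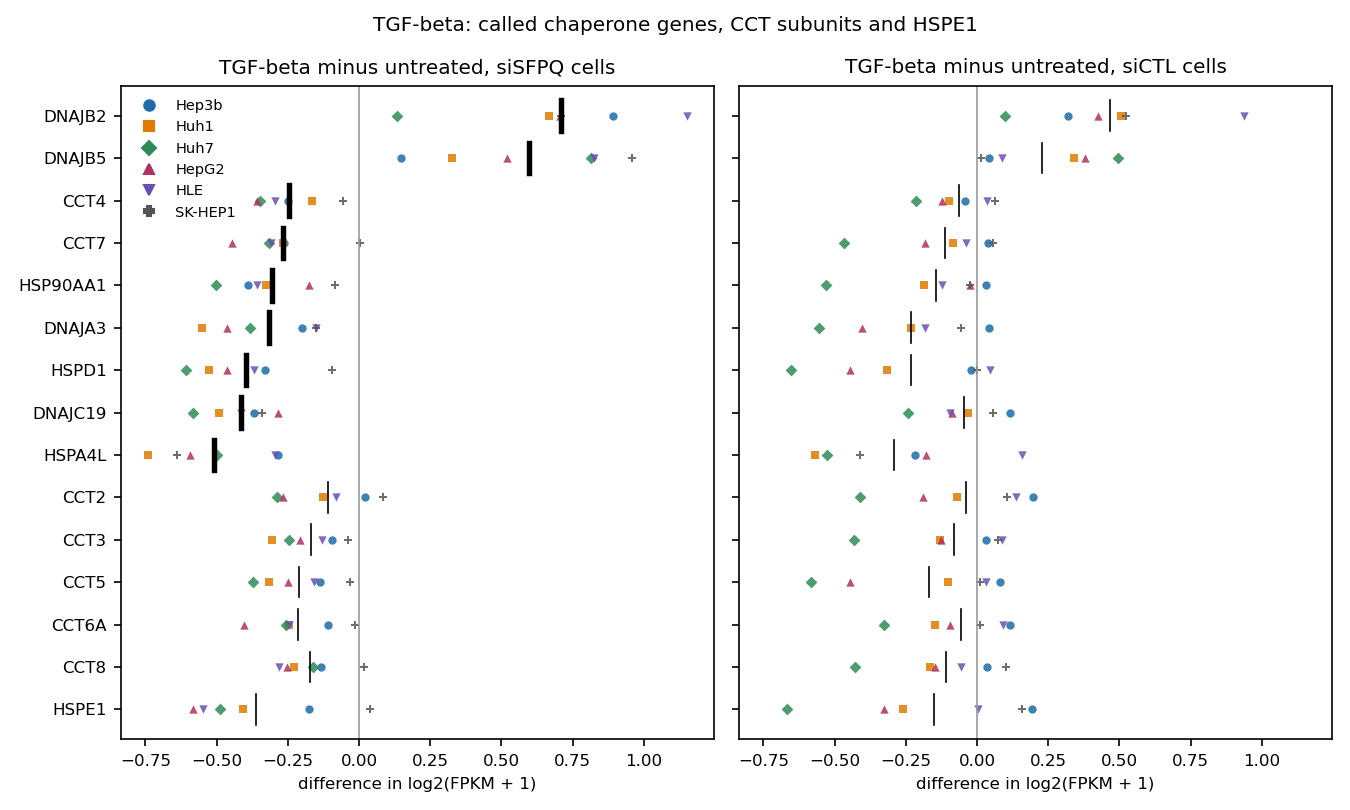
Log2 change of FPKM + 1 with TGF-beta minus without, in siSFPQ cells on the left and siCTL cells on the right, for the 9 members called in siSFPQ cells, HSPE1 and the other CCT subunits. Points are the 6 lines, bars their mean, and thick bars mark called members; the means of the CCT subunits drawn lie below 0 in siSFPQ cells and in siCTL cells.

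The summed FPKM of markers of stellate cells and fibroblasts differed between the same groups, but different genes made up the sums in different lines. LUM had a line mean of 69.1 FPKM in Huh1, and COL1A2 had 82.55 FPKM in SK-HEP1 and 0.0382 in Hep3b. The 5 markers summed to 20.5 to 238 FPKM in siSFPQ and 10.8 to 146 FPKM in siCTL cells with TGF-beta, and to 5.39 to 101 FPKM in siSFPQ and 5.02 to 84.9 FPKM in siCTL cells without it. PDGFRB and COL1A1, 2 of the 5, rose after TGF-beta in siSFPQ cells (1.25 and 2.61) and in siSFPQ against siCTL cells with TGF-beta (1.05 and 0.98). After knockdown without TGF-beta neither was called (0.32 and 0.42), and COL1A2, DES and LUM were too rarely detected to be tested. DES was at 0 in Huh7 and SK-HEP1, and LUM was at 0 in SK-HEP1. Of the 5 immune markers, CD68 alone was called, higher by 0.36 after knockdown without TGF-beta. The part of these markers in the chaperone changes was not tested.

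Partners of these chaperones were counted from lists of co-chaperones and related genes, some of which hold members. The deepest change was in PTGES3 (p23), which stabilises client-bound HSP90: it had 19.1, 36.7 and 92.3 FPKM in siSFPQ and 104, 247 and 288 FPKM in siCTL cells with TGF-beta, and 18.3, 48.8 and 96.1 FPKM in siSFPQ and 116, 248 and 283 FPKM in siCTL cells without it. The 2 groups did not overlap in either comparison. PTGES3 fell by 2.29 (SE 0.28, adjusted p = 0.00241) with and by 2.21 (SE 0.30, adjusted p = 0.00378) without TGF-beta, in 6 of 6 lines each. STIP1 (HOP), which joins HSP70 to HSP90, fell by 0.74 (SE 0.14, adjusted p = 0.00697) with and by 0.63 (SE 0.15, adjusted p = 0.0197) without TGF-beta. Of 31 co-chaperones tested, 1 rose and 7 fell after knockdown with TGF-beta (25.8%, against 30.3% of all genes tested) and 1 rose and 5 fell without it (19.4%, against 21.7%); TOMM34 was the one that rose, by 0.40 and 0.47.

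In mitochondria, of 13 partners tested, 1 rose and 3 fell after knockdown with TGF-beta (30.8%, against 30.3% of all genes) and 0 rose and 3 fell without it (23.1%, against 21.7%). PAM16, which pairs with DNAJC19 in the import motor, fell by 0.91 with and by 0.80 without TGF-beta, and the mitochondrial HSP90 TRAP1 fell by 0.72 and 0.59. Of 10 chaperonin partners, 1 fell in each comparison (10% in both, against 30.3% of all genes with and 21.7% without TGF-beta). TCP1, the CCT1 subunit, fell by 0.46 with TGF-beta (adjusted p = 0.00688) and had -0.32 without it (adjusted p = 0.0527). PDCL fell by 0.35 without TGF-beta. Of 15 endoplasmic reticulum genes, 1 rose and 5 fell with TGF-beta (40%, against 30.3% of all genes) and 0 rose and 3 fell without it (20%, against 21.7%), led by DNAJB9, which fell by 1.00 and 0.98, and by SIL1, a nucleotide exchange factor, which fell by 0.71 and 0.63. TGF-beta in siSFPQ cells called 1 of 31 co-chaperones, BAG2, lower by 0.35 (3.23%, against 5.13% of all genes). It called 3 of 13 mitochondrial partners lower, TRAP1, TIMM44 and CLPP (23.1%, against 5.13%). No partner list had a call after TGF-beta in siCTL cells or for the difference.

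Genes commonly given as HSF1 targets were called in both directions after knockdown with TGF-beta. Of 28 tested, 2 rose and 5 fell there (25%, against 30.3% of all genes). HSPB1 and CRYAB (1.04), another small heat shock gene, were higher, and PTGES3, STIP1, HSPE1, HSP90AB1 and HSPA4L lower. The CRYAB change (SE 0.29, adjusted p = 0.0256 in limma) was uneven, between 2.15 in Hep3b and -0.04 in HLE. CRYAB reached 1 FPKM in 13 of the 24 libraries. Without TGF-beta 0 rose and 2 fell, PTGES3 and STIP1 (7.14%, against 21.7%). After TGF-beta in siSFPQ cells 0 rose and 4 fell, HSPA4L, HSPD1, HSP90AA1 and CCT4 (14.3%, against 5.13%). HSF1 itself rose by 0.23 (adjusted p = 0.0424) with TGF-beta and had 0.18 (adjusted p = 0.217) without it in the knockdown comparisons. BAG3, a stress-induced HSP70 co-chaperone, was not called, at 0.18 with and 0.10 without TGF-beta.

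**Figure D4:**
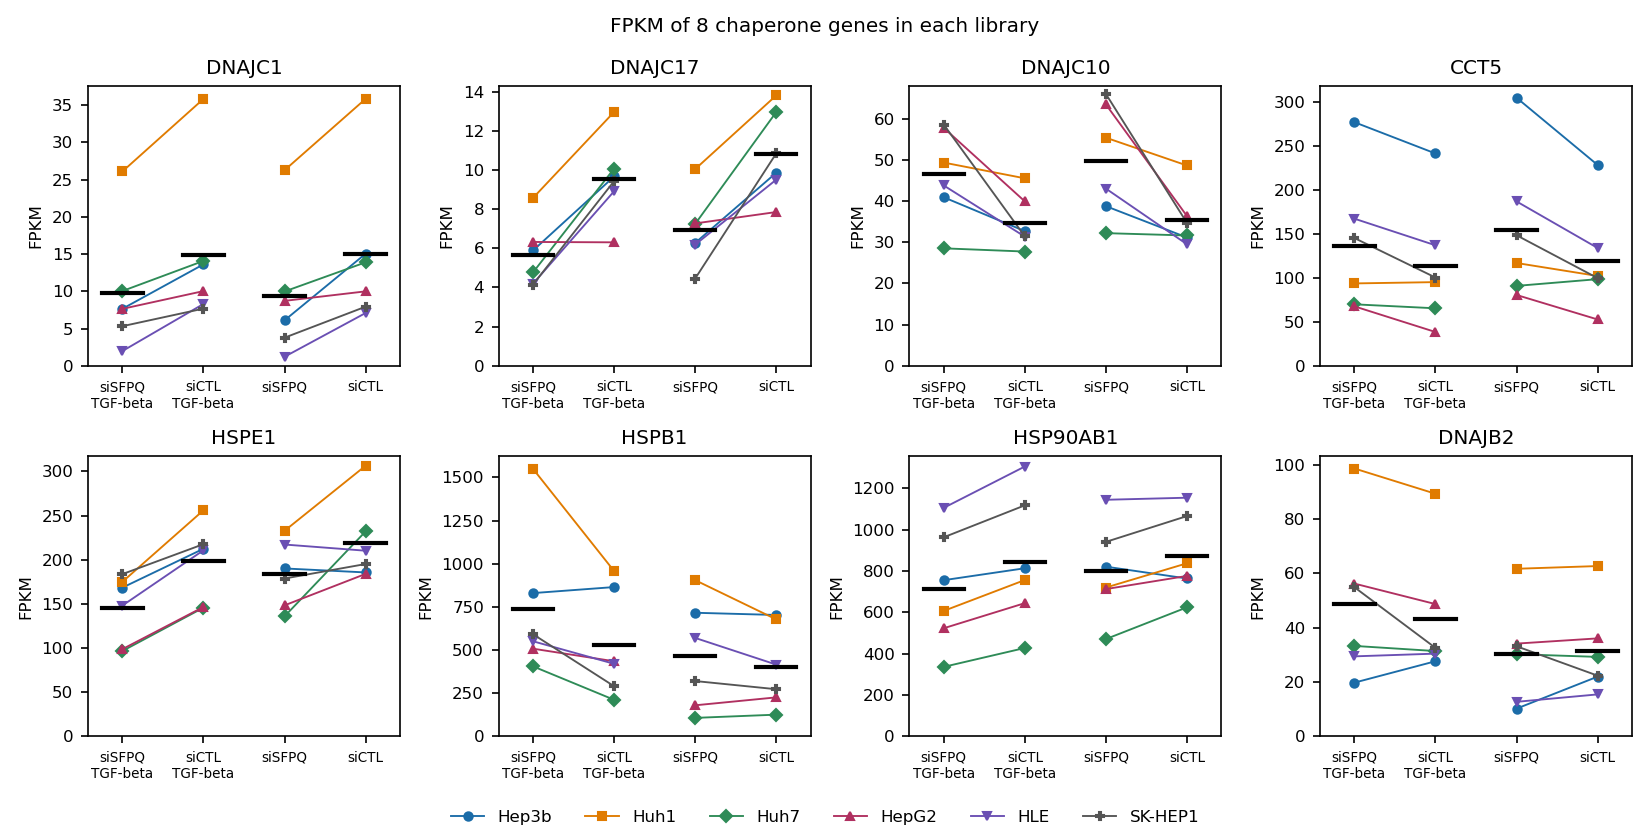
FPKM of 8 chaperone genes in all 24 libraries, in the order siSFPQ with TGF-beta, siCTL with TGF-beta, siSFPQ and siCTL; thin lines join the libraries of a line and black bars are group means. The group means of DNAJC1 and DNAJC17 are lower and that of DNAJC10 higher in siSFPQ than in siCTL cells, while HSPB1 is highest in siSFPQ cells with TGF-beta (median 571 FPKM).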

How the data were processed

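RNA was measured in 24 libraries, 6 lines in each of 4 groups taken from the sample titles. The labels' protocols name Trizol extraction and a VAHTS mRNA kit, and do not say whether strand was kept. The table the authors deposited holds FPKM although it is named as raw counts: values are not whole, and in 569 single-transcript genes longer transcripts had lower smallest values (log-log slope -0.97). The tools were TopHat2 2.1.1 and Cufflinks 2.2.1 on hg19, per the submitters' processing notes; the sources used here do not name the annotation or the settings. The table also has 2 empty columns, which were not used.

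Of 23284 features, 1625 short RNAs were left out and estimates under 1e-06 FPKM were set to 0. Genes with 1 FPKM or more in 6 or more libraries of a comparison were tested. limma 3.58.1 in R 4.3.3 was run on log2(FPKM + 1) with cell line as a block, eBayes with trend and robust shrinkage and 5 residual degrees of freedom, and p-values were adjusted over all genes tested after Benjamini and Hochberg; a call is an adjusted p under 0.05. A fold on this scale understates changes of low genes. The difference between TGF-beta changes was fitted in 24 libraries with terms for line and for its interactions with siRNA and with TGF-beta. The fit was tested on simulated data. The line named in the labels pairs the libraries: the correlation of deviations from group means was 0.727 to 0.868 within lines and between -0.468 and 0.363 for the 180 pairs that differ in line and group. No 2 libraries were identical. Depth is not given by FPKM; it was estimated from low genes with an assumed fragment length of 180 bases, is approximate, and was not used in the tests. Other steps used Python 3.11.15.

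The members and the gene lists were chosen with earlier results of these data known. Named in each comparison were the 8 called members that rose most and the 8 that fell most, with the same sign in every line. Where fewer than 4 were called, the 4 with the smallest p-values were named. A fixed set of 12 chaperones (HSPA8, HSPA1A, HSPA1B, HSPA9, HSPH1, HSP90AA1, HSP90AB1, HSPD1, HSPE1, HSPB1, DNAJA1 and DNAJB1) and the CCT subunits were named throughout. Of each partner list, the 2 largest called changes in each direction were named, with HSF1, PTGES3, TCP1 and BAG3. Other called members are named to complete counts, and line-restricted genes were chosen after their values were seen. Alternatives were another pseudocount, no filter, a common median ratio, all short RNAs kept, no line block, removal of the GC trend, and leaving out each line. Reads of near-identical genes (HSPA1A and HSPA1B, HSPA6 and HSPA7, CCT6A and its pseudogenes, HSP90 genes and pseudogenes) may have been split in ways the files do not show.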

Additional observations from a re-analysis of the deposited data

Results flagged for a closer look

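In 6 of 128 sets of line changes checked, 1 line stood apart from the other 5 (its gap to the nearest line, as a share of the range of all 6, exceeded Dixon's 95% critical value), where chance gives about 1 in 20. After knockdown with TGF-beta, DNAJC1 changed by -1.64 in HLE, where the other 5 lines had -0.76 to -0.35 (gap over range 0.686). In the same comparison DNAJC7 had -0.64 in SK-HEP1 and -0.33 to -0.16 elsewhere (0.640). After TGF-beta in siCTL cells the HSP110 gene HSPH1 had -0.35 in Huh7, with -0.01 to 0.16 in the other lines (0.673). For the difference between the TGF-beta changes, HSPA1A had 0.34 in HepG2 and -0.26 to -0.04 elsewhere (0.633), CCT3 had 0.19 in Huh7 and -0.22 to -0.08 elsewhere (0.659), and CCT8 had 0.27 in Huh7 and -0.22 to -0.06 elsewhere (0.676). The shallowest library was Huh7 siSFPQ with TGF-beta (relative depth 0.349), which enters the CCT3 and CCT8 values. In Huh7 the TGF-beta changes of CCT3 and CCT8 were -0.25 and -0.16 in siSFPQ cells and -0.43 and -0.43 in siCTL cells. The part of depth was not tested.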

How the results depend on the processing

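Of the 36 calls of members, 8 were kept with any line left out and 6 of these also under another pseudocount, no filter, a common median ratio, short RNAs kept and the GC trend removed: DNAJC17 in both knockdown comparisons, and DNAJC1, CCT6A, HSPE1 and HSP90AA6P in knockdown with TGF-beta. No called member changed sign under any of these. Members called numbered 9 after knockdown without TGF-beta (1 without a filter on low values, 1 to 7 with 1 line left out, 3 without Huh7 and HepG2), 18 with it (10 to 17, and 6 without Huh7 and HepG2), and 9 after TGF-beta in siSFPQ cells (0 without a filter, 5 with a common median ratio, 5 with the GC trend removed, 0 to 5 with 1 line left out, 1 without Huh7 and HepG2). Leaving out Huh7 and HepG2, which hold the shallowest libraries, was chosen after seeing the data. TGF-beta in siCTL cells and the difference gave 0 in all. Without the replicate block for cell line, 0 members and 0 genes were called in any comparison, and 1, 2 and 1 members had an unadjusted p under 0.05 in the first 3. The members' median with the GC trend removed was 0.10 after knockdown without and 0.06 with TGF-beta, and 0.01 with TGF-beta under a common median ratio. Calls without TGF-beta after the GC trend was removed were 6 higher and 3 lower; TGF-beta in siSFPQ cells gave 2 and 3 under either scaling. Other causes of lost calls were not tested; low depth limits low genes most.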
